A study of Mus musculus with 12 samples.

Results

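The let-7 and miR-98 family was followed across 4 treatments of 3T3-L1 cells, a mouse fibroblast line of clonal origin that differentiates into adipocytes on induction. Its members were chosen by name, as the 9 mouse guide strands mmu-let-7a, mmu-let-7b, mmu-let-7c, mmu-let-7d, mmu-let-7e, mmu-let-7f, mmu-let-7g, mmu-let-7i and mmu-miR-98 (written below without the species prefix), out of 611 mouse microRNAs (miRNAs) with probes on the array. Each of the 12 samples was hybridised to 1 single-colour Agilent array, 3 arrays per group. The lithium plus MDI cells were treated with lithium chloride at 25 mM and with MDI, a differentiation medium of 3-isobutyl-1-methylxanthine, dexamethasone and insulin. The MDI cells had that medium for 3 days from confluence, insulin without the other agents for 2 days and plain medium for 2 days, ending at day 7, and the submitters call them mature adipocytes. The lithium cells were preadipocytes given lithium chloride at 25 mM, and the preadipocytes had neither treatment. All 4 groups share the cell line and its basal medium with 10% fetal bovine serum. The submitters set MDI as their model of suppressed WNT signalling and lithium as that of activated WNT signalling, and the combined treatment asks whether lithium-treated cells can still become adipocytes. The labels give no schedule for the preadipocytes, the lithium cells or the lithium plus MDI cells, so time in culture and treatment cannot be told apart. Whether a group's 3 samples were separate cultures is not stated either, so each p-value rests on a spread between samples that may be purely technical.

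miRNAs are short RNAs that guide the silencing complex to messenger RNAs, mainly through the seed, the bases from position 2 to position 8. The let-7 family is among the most conserved miRNA families, and its targets include Hmga2, Igf2bp1, Myc and Ras genes. The RNA-binding protein LIN28 blocks the maturation of let-7 precursors in undifferentiated cells. In 3T3-L1 cells let-7 has been described as a brake on the early divisions after induction, acting on Hmga2.

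The mature sequences are shown because the members differ by so few bases that a probe has little to tell them apart by. All 9 were matched in RefSeq (build GRCm38.p6), and the capitals mark the seed.
let-7a: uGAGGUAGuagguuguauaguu
let-7b: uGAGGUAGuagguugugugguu
let-7c: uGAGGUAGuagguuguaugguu
let-7d: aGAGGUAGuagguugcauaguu
let-7e: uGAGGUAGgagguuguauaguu
let-7f: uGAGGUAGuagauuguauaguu
let-7g: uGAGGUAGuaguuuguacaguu
let-7i: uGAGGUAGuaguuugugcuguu
miR-98: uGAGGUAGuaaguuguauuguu
Every sequence is 22 bases long, and all 9 share 1 seed, so the differences lie outside it. Counted from 1 at the 5′ end and relative to let-7a, let-7c carries A19G, let-7b A17G and A19G, let-7e U9G, and let-7f G12A. let-7d carries U1A and U16C, let-7g G12U and U18C, and miR-98 G11A and A19U. let-7i is the farthest from let-7a, with G12U, A17G, U18C and A19U. Of the 36 pairs of members, 4 differ by 1 base, and no pair differs by more than 6. The scanner files give no probe sequences, so how much of one member's RNA binds another's probe was not tested, and a difference between near-identical members is uncertain to that extent. RefSeq holds a further 2 mature miRNAs with this seed, let-7k and miR-1961, which the array does not carry.

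The 9 miRNAs come from 12 genes, and several sit in clusters (GRCm38.p6, coordinates of the mature strand). On chromosome 13 lie the genes of let-7a (chr13:48538239-48538260, minus strand), let-7f (chr13:48537889-48537910, minus strand) and let-7d (chr13:48536078-48536099, minus strand). On chromosome 15, let-7c (chr15:85706616-85706637, plus strand) and let-7b (chr15:85707325-85707346, plus strand) lie within the bounds of Lncppara. A further let-7c gene (chr16:77599672-77599693, plus strand) neighbours miR-99a, and let-7e (chr17:17830366-17830387, plus strand), within Spaca6, neighbours miR-99b and miR-125a. On the X chromosome, within Huwe1, lie a further let-7f gene (chrX:151912353-151912374, plus strand) and miR-98 (chrX:151913229-151913250, plus strand). A further let-7a gene (chr9:41536732-41536753, plus strand) lies within the miR-100 host gene Mir100hg. let-7g (chr9:106178846-106178867, plus strand) lies within Wdr82, and let-7i (chr10:122985698-122985719, minus strand) within no listed gene. The array reads the mature strand, so the genes that make let-7a, let-7c or let-7f cannot be told apart.

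The arrays detected 126 to 180 mouse miRNAs each, and 157 miRNAs were tested. Of 7 miRNA markers of mesenchymal cells, 7 were detected and 6 of these on all 12 arrays. Of 26 markers of epithelium, muscle, blood, neural tissue, liver and endothelium, 2 were detected on any array (miR-128 on 7, miR-205 on 3) and 24 on none. The groups did not separate cleanly over the tested miRNAs, since for 6 of the 12 arrays the mean correlation was higher with some other group than within the group. Lithium plus MDI array 3 (mean r 0.924 with its own group, 0.965 with the preadipocytes), lithium array 1 (0.942, against 0.960 with the MDI arrays) and preadipocyte array 3 (0.939, against 0.957 with the lithium arrays) are called the 3 arrays that stood apart, because their mean r within the group was lowest, and counts are also given without them. The line is a fine one, since lithium plus MDI array 2 followed at 0.944 and reached 0.966 with the MDI arrays, a wider gap than for lithium array 1 or preadipocyte array 3. The other 2 of the 6 were lithium plus MDI array 1 (0.959, against 0.974 with the MDI arrays) and MDI array 1 (0.954, against 0.956 with the lithium plus MDI arrays). That choice rests on the same values, members included, so calls made without these arrays are not independent evidence. Slide 1, scanned in its own session, held the 3 preadipocyte arrays and MDI array 1, and slide 2 held all others.

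All 9 members were detected on all 12 arrays, each by both of its probes, and none was saturated. Levels are log2 signals over each array's 75th percentile, taken from a member's brighter probe. Levels of different members are not comparable with each other, because probes differ in response. The 9 members together took 18.1% ± 1.07 of the summed signal of all mouse miRNAs in lithium plus MDI cells, 16.3% ± 1.62 in MDI cells, 18.1% ± 0.493 in lithium cells and 20.6% ± 1.89 in preadipocytes (SD, n = 3 each). That share was 17.9%, 19.2% and 17.1% on the lithium plus MDI arrays, 14.6%, 16.7% and 17.8% on the MDI arrays, 17.6%, 18.1% and 18.6% on the lithium arrays and 18.5%, 22.3% and 20.9% on the preadipocyte arrays. Only preadipocyte arrays 2 and 3 lay above 20%. In these bulk samples, fewer cells of a type and less RNA per cell cannot be told apart.

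**Figure D1:**
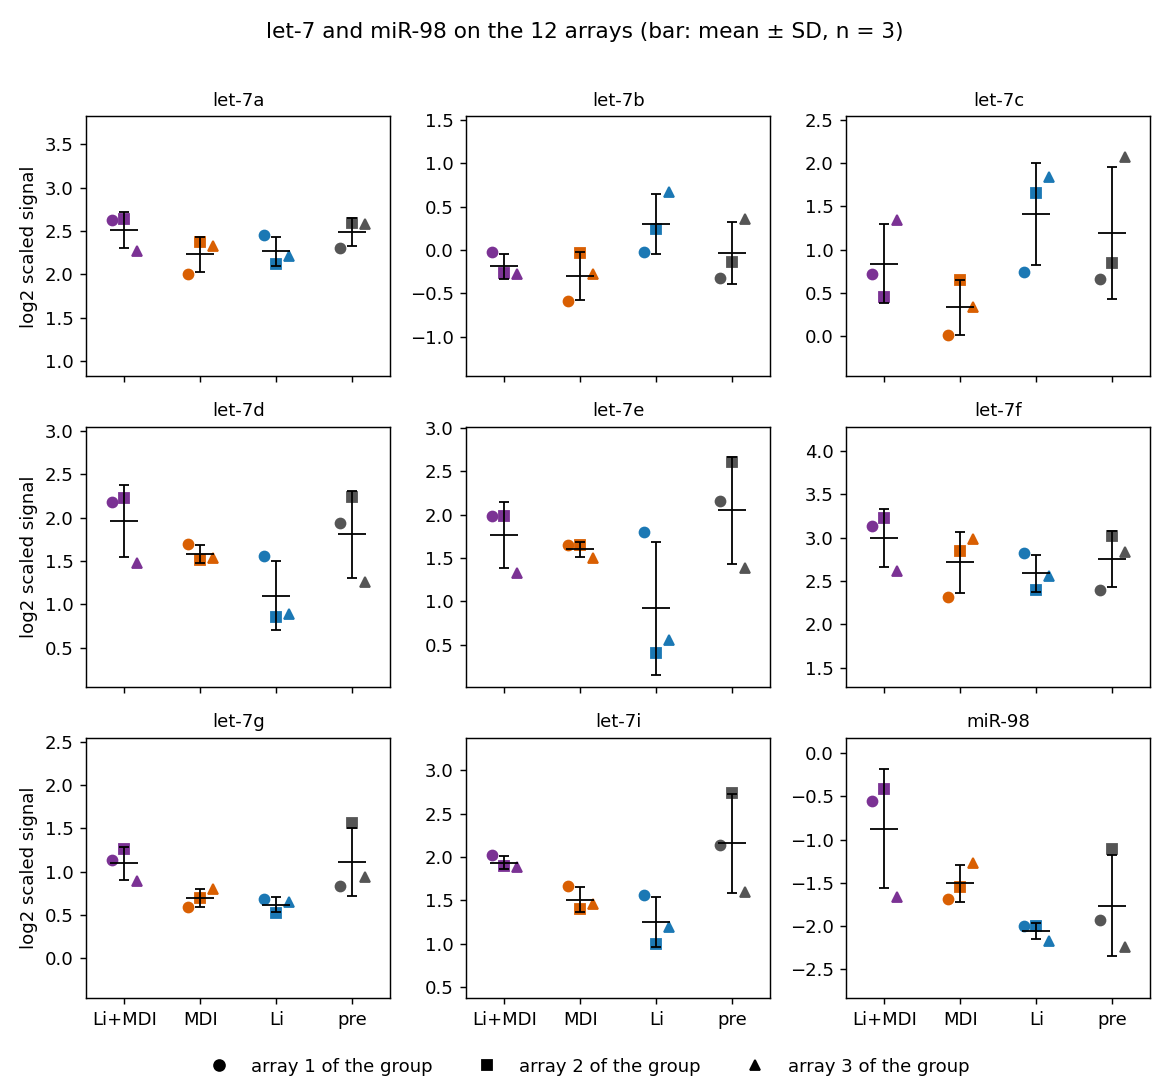
Level of each member on every array (log2 signal over the array's 75th percentile). Points are arrays, shaped by array number, for lithium plus MDI (Li+MDI), MDI, lithium (Li) and preadipocytes (pre), and bars are the mean ± SD of 3 arrays. Each panel spans 3 log2 units. let-7c and let-7e have the widest spread within lithium cells and within preadipocytes.

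let-7a, let-7f and let-7d share the chromosome 13 cluster. let-7a, which also has a gene beside miR-100, read 2.62, 2.64 and 2.27 in lithium plus MDI cells, 2.00, 2.37 and 2.33 in MDI cells, 2.46, 2.12 and 2.21 in lithium cells, and 2.31, 2.59 and 2.58 in preadipocytes. let-7f read 3.14, 3.23 and 2.61 in lithium plus MDI cells, 2.32, 2.84 and 2.98 in MDI cells, 2.82, 2.39 and 2.55 in lithium cells, and 2.40, 3.02 and 2.83 in preadipocytes. Every pair of groups overlapped for both. let-7d, the third miRNA of that cluster, read 2.18, 2.22 and 1.48 in lithium plus MDI cells, 1.69, 1.51 and 1.53 in MDI cells, 1.56, 0.85 and 0.88 in lithium cells, and 1.94, 2.24 and 1.25 in preadipocytes. Lithium arrays 2 and 3 were its lowest readings, while lithium array 1 lay among the MDI arrays. On the X chromosome, miR-98 shares its host gene with let-7f. miR-98 read -0.55, -0.41 and -1.66 in lithium plus MDI cells, -1.69, -1.55 and -1.28 in MDI cells, -2.0, -2.0 and -2.17 in lithium cells, and -1.93, -1.11 and -2.24 in preadipocytes. Lithium plus MDI arrays 1 and 2 were its highest readings, and every lithium plus MDI array lay above every lithium array.

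let-7b and let-7c, which share a cluster on chromosome 15, had their highest means in lithium cells. let-7b read -0.018, -0.27 and -0.27 in lithium plus MDI cells, -0.59, -0.030 and -0.28 in MDI cells, -0.021, 0.25 and 0.67 in lithium cells, and -0.32, -0.14 and 0.36 in preadipocytes. let-7c read 0.72, 0.45 and 1.35 in lithium plus MDI cells, 0.013, 0.65 and 0.34 in MDI cells, 0.74, 1.65 and 1.85 in lithium cells, and 0.66, 0.85 and 2.07 in preadipocytes. The highest let-7c reading was preadipocyte array 3, followed by lithium arrays 3 and 2 and lithium plus MDI array 3. The MDI arrays lay below every preadipocyte array for let-7c, the nearest pair being 0.65 and 0.66.

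let-7e, which lies beside miR-99b and miR-125a, had the lowest readings where let-7c was high. let-7e read 1.99, 1.98 and 1.33 in lithium plus MDI cells, 1.65, 1.65 and 1.50 in MDI cells, 1.80, 0.41 and 0.55 in lithium cells, and 2.15, 2.61 and 1.39 in preadipocytes. let-7i, which has a gene of its own, read 2.02, 1.90 and 1.88 in lithium plus MDI cells, 1.66, 1.40 and 1.46 in MDI cells, 1.56, 1.00 and 1.19 in lithium cells, and 2.13, 2.74 and 1.60 in preadipocytes. let-7g, hosted by Wdr82, read 1.14, 1.26 and 0.89 in lithium plus MDI cells, 0.59, 0.70 and 0.80 in MDI cells, 0.68, 0.52 and 0.65 in lithium cells, and 0.83, 1.56 and 0.94 in preadipocytes. For both let-7g and let-7i, all 3 lithium plus MDI arrays lay above all 3 MDI arrays and all 3 lithium arrays, and preadipocyte array 2 was the highest of the 12.

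Averaged over the 9 members, the level was 1.34 ± 0.21 in lithium plus MDI cells, 0.98 ± 0.12 in MDI cells, 0.93 ± 0.13 in lithium cells and 1.31 ± 0.25 in preadipocytes (SD, n = 3 each). When a member's 4 group means are put in order, neighbouring groups overlapped in their arrays, with the exception of lithium plus MDI above MDI for let-7g and let-7i.

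Lithium against preadipocytes, the comparison for WNT activation, had 7 members with a lower mean in lithium cells and 2, let-7b and let-7c, with a higher one. let-7e differed by -1.13 (SE 0.39, limma adjusted p = 0.114), let-7i by -0.91 (SE 0.29, limma adjusted p = 0.110), let-7d by -0.71 (SE 0.32, limma adjusted p = 0.205) and let-7g by -0.49 (SE 0.25, limma adjusted p = 0.252). let-7b differed by 0.33 (SE 0.28, limma adjusted p = 0.483). Of the 9 members, 0 passed the threshold of 0.05, against 6.37% of all tested miRNAs, and 3 had an unadjusted p under 0.05, against 35 of the 157 tested. The groups did not overlap for 2 members, let-7g and let-7i, both with lithium below, against 29.9% of all tested miRNAs. The members' median difference was -0.29 and that of all tested miRNAs -0.07, and 54.8% of all tested miRNAs were lower in lithium cells. With quantile normalization or in the authors' deposited value table, 5 members were lower and 4 higher. The higher means of let-7b and let-7c turned, so that 9 of 9 members were lower, with the percentile over every mouse probe (-0.56 and -0.67), with no scaling (-0.36 and -0.47) and with the slide as a block (-0.10 and -0.26). let-7c also turned without preadipocyte array 1, to -0.044.

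The calls of lithium against preadipocytes depended on which arrays were kept. Without the 3 arrays that stood apart, 5 members passed, and 52.9% of all tested miRNAs did. let-7e (-1.91, limma adjusted p = 0.000463), let-7i (-1.35, adjusted p = 0.0023) and let-7d (-1.22, adjusted p = 0.00162) were then lower in lithium cells. let-7c (0.99, limma adjusted p = 0.0078) and let-7b (0.69, adjusted p = 0.0411) were then higher in lithium cells. Without preadipocyte array 3 alone, let-7e, let-7i and let-7d passed (21.0% of all tested), and without lithium array 1 alone, let-7e and let-7i passed (16.6% of all tested). With all arrays, but the 75th percentile taken over every mouse probe, 7 members were lower past the threshold. The median of all tested miRNAs then stood at -0.90. That percentile lay near background, at 2.68 to 5.97 in signal. How many of all tested miRNAs passed with it was not counted, so the 7 are not evidence particular to the family. All preadipocyte arrays are on slide 1 and all lithium arrays on slide 2, joined only through the MDI arrays. With the slide as a block, the differences were -1.06 for let-7e (SE 0.74, limma adjusted p = 0.569) and -0.67 for let-7i (SE 0.52, limma adjusted p = 0.652).

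MDI against preadipocytes, the comparison for differentiation, had 8 members with a lower mean in MDI cells and 1, miR-98, with a higher one. let-7c differed by -0.86 (SE 0.41, 95% interval -1.74 to 0.03, limma adjusted p = 0.290), let-7i by -0.65 (SE 0.29, limma adjusted p = 0.251), let-7e by -0.45 (SE 0.39, limma adjusted p = 0.489) and let-7g by -0.41 (SE 0.25, limma adjusted p = 0.373). Of the 9 members, 0 passed, against 3.18% of all tested miRNAs, and 1 had an unadjusted p under 0.05, against 28 of the 157 tested. let-7c and let-7g did not overlap between the groups, 2 of 9 with MDI below, against 26.8% of all tested miRNAs. The members' median was -0.26, while that of all tested miRNAs was 0.10, and 43.3% of all tested miRNAs were lower in MDI cells. The number of members lower in MDI cells ranged from 6, with normexp background correction or in the authors' deposited value table, to 9 with the percentile over every mouse probe or no scaling. With that percentile, 8 members were lower past the threshold, and the median of all tested miRNAs stood at -0.64. How many of all tested miRNAs passed with it was not counted, so the 8 are not evidence particular to the family.

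Without the 3 arrays that stood apart, 2 members passed in MDI against preadipocytes, let-7i (-0.93, limma adjusted p = 0.0142) and let-7e (-0.78, adjusted p = 0.0182), and 24.2% of all tested miRNAs did. On slide 1 alone, where MDI array 1 met the 3 preadipocyte arrays, the difference was -1.18 for let-7c, -0.52 for let-7g and -0.49 for let-7i. These are values without a test, since the MDI side is 1 array.

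Lithium plus MDI against lithium, the comparison for differentiation under lithium, lies within slide 2. miR-98, let-7d, let-7e, let-7i, let-7g, let-7f and let-7a had higher means in lithium plus MDI cells, and let-7b and let-7c lower ones. miR-98 differed by 1.18 (SE 0.36, 95% interval 0.41 to 1.96, limma adjusted p = 0.0728), let-7d by 0.86 (SE 0.32, limma adjusted p = 0.105), let-7e by 0.85 (SE 0.39, limma adjusted p = 0.160) and let-7i by 0.68 (SE 0.29, limma adjusted p = 0.144). let-7c differed by -0.57 (SE 0.41, limma adjusted p = 0.321) and let-7b by -0.49 (SE 0.28, limma adjusted p = 0.235). Of the 9 members, 0 passed, as did 0.0% of all tested miRNAs, while 3 members and 48 of the 157 tested miRNAs had an unadjusted p under 0.05. let-7g, let-7i and miR-98 did not overlap between the groups, 3 of 9 with lithium plus MDI above, against 33.8% of all tested miRNAs. The members' median was 0.48 and that of all tested miRNAs 0.39, and 71.3% of all tested miRNAs were higher in lithium plus MDI cells. let-7a and let-7f turned to lower means in lithium plus MDI cells with quantile normalization and in the authors' deposited value table.

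Without the 3 arrays that stood apart, 5 members passed in lithium plus MDI against lithium, and 56.1% of all tested miRNAs did. miR-98 (1.60, limma adjusted p = 0.0015), let-7e (1.51, adjusted p = 0.000563), let-7d (1.33, adjusted p = 0.000681) and let-7i (0.86, adjusted p = 0.0132) were then higher in lithium plus MDI cells, and let-7c (-1.16, adjusted p = 0.00394) lower. Without lithium plus MDI array 3 alone, miR-98 and let-7d passed (24.2% of all tested), and without lithium array 1 alone, let-7d and let-7e (20.4% of all tested). miR-98 passed without preadipocyte array 3 as well (15.3% of all tested), an array outside the comparison that enters through the shared estimate of spread. On slide 2 alone, the limma adjusted p was 0.0567 for miR-98 and 0.0745 for let-7i.

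Lithium plus MDI against MDI, the comparison for lithium in induced cells, had higher means in lithium plus MDI cells for 9 of 9 members, from 0.11 for let-7b to 0.63 for miR-98. With quantile normalization, in the authors' deposited value table, and with the percentile over every mouse probe or without the members' own probes, 7 of 9 were higher. Of the 9 members, 0 passed (lowest limma adjusted p = 0.781), as did 0.0% of all tested miRNAs. At an unadjusted p under 0.05 there were 0 members and 6 of the 157 tested miRNAs. let-7g, at 0.40 (SE 0.25), and let-7i, at 0.42 (SE 0.29), did not overlap between the groups, against 12.1% of all tested miRNAs. The members' median was 0.38 and that of all tested miRNAs 0.18, and 72.6% of all tested miRNAs were higher in lithium plus MDI cells. On slide 2 alone, which leaves out MDI array 1, 8 of 9 members were higher and their median was 0.34.

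Lithium plus MDI against preadipocytes, the comparison of both treatments with neither, gave 5 members with a lower mean in lithium plus MDI cells and 4 with a higher one. miR-98 differed by 0.89 (SE 0.36, 95% interval 0.11 to 1.66, limma adjusted p = 0.244), the only member with an unadjusted p under 0.05, against 27 of the 157 tested miRNAs. Of the 9 members, 0 passed, against 1.27% of all tested miRNAs. No member was separated between the groups, while 17.8% of all tested miRNAs were. The members' median was -0.01 and that of all tested miRNAs 0.30, and 32.5% of all tested miRNAs were lower in lithium plus MDI cells. The split between lower and higher members depended on the scaling. Every member was lower with the percentile over every mouse probe, and all except miR-98 with no scaling. All except let-7d and miR-98 were lower with quantile normalization, let-7a by only -0.00022. miR-98 passed without lithium plus MDI array 3 (1.28, limma adjusted p = 0.0185, 22.9% of all tested). It also passed without the 3 arrays that stood apart (1.04, limma adjusted p = 0.0248, 24.2% of all tested). Its sign turned, to -0.16, with the percentile over every mouse probe. With that percentile 6 other members were lower past the threshold, and the median of all tested miRNAs stood at -0.65. How many of all tested miRNAs passed with it was not counted. With the slide as a block, miR-98 differed by 0.61 (SE 0.66, limma adjusted p = 0.723).

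**Figure D2:**
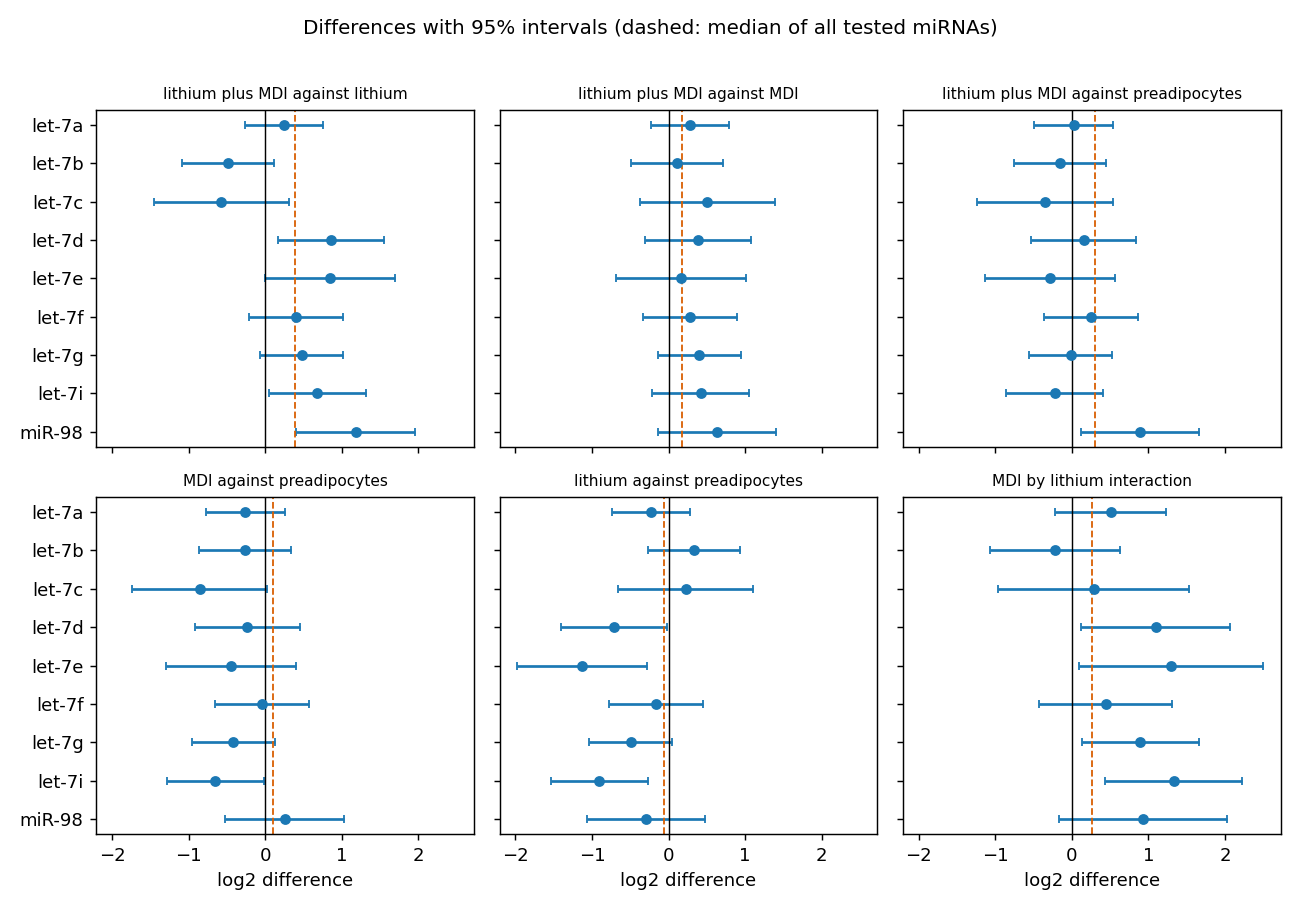
Log2 difference of each member in the 6 comparisons, first-named group minus second-named group, with 95% intervals from limma on 12 arrays. The solid line marks 0 and the dashed line the median of the 157 tested miRNAs. In the interaction panel let-7d, let-7e, let-7g and let-7i have intervals above 0 before adjustment for multiple tests.

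The interaction subtracts the MDI difference of untreated cells from that of lithium-treated cells, so it uses all 4 groups and tests whether the response to MDI differed between lithium-treated and untreated cells. It was above 0 for 8 of 9 members and below 0 for let-7b. let-7i stood at 1.33 (SE 0.42, 95% interval 0.44 to 2.23, limma adjusted p = 0.0865), let-7e at 1.30 (SE 0.56, limma adjusted p = 0.205), let-7d at 1.09 (SE 0.45, limma adjusted p = 0.194), miR-98 at 0.93 (SE 0.51, limma adjusted p = 0.320) and let-7g at 0.89 (SE 0.36, limma adjusted p = 0.184). Of the 9 members, 0 passed, as did 0.0% of all tested miRNAs, while 4 members and 35 of the 157 tested miRNAs had an unadjusted p under 0.05. The members' median was 0.89 and that of all tested miRNAs 0.26, and 65.6% of all tested miRNAs were above 0. For let-7i the MDI difference was 0.68 with lithium and -0.65 without it. let-7a and let-7f stood below 0 in this contrast with quantile normalization and in the authors' deposited value table. let-7b, at -0.22 (SE 0.39) with all arrays, turned to 0.44 with the percentile over every mouse probe, 0.65 with no scaling and 0.067 with the slide as a block. let-7c, at 0.28 (SE 0.58) with all arrays, turned to -0.0026 with quantile normalization, -0.15 without preadipocyte array 3, -0.052 without lithium array 1 and -0.74 without the 3 arrays that stood apart (SE 0.34, limma adjusted p = 0.103).

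Without the 3 arrays that stood apart, let-7e (2.29, limma adjusted p = 0.0016), let-7d (1.84, adjusted p = 0.00167), let-7i (1.79, adjusted p = 0.00286), miR-98 (1.59, adjusted p = 0.00892) and let-7g (1.11, adjusted p = 0.0243) passed in the interaction, and 43.9% of all tested miRNAs did. Without preadipocyte array 3 alone, let-7i (1.61, limma adjusted p = 0.0193) and let-7d (1.37, limma adjusted p = 0.0438) passed, with 16.6% of all tested miRNAs. With the slide as a block, let-7i stood at 1.17 (SE 0.50, limma adjusted p = 0.295).

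Both probes of a member gave the same sign in 50 of 54 member-by-comparison pairs, and their differences lay at most 0.27 apart. Tested probe by probe, 0 of 108 member probe tests passed after adjustment over 280 probes.

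The members did not vary as 1 block from array to array. A ratio of 2 members within an array does not depend on the scaling between arrays. let-7c minus let-7e was -1.27, -1.53 and 0.018 in lithium plus MDI cells, -1.64, -1.0 and -1.16 in MDI cells, -1.06, 1.25 and 1.30 in lithium cells, and -1.49, -1.76 and 0.68 in preadipocytes. Lithium arrays 2 and 3, preadipocyte array 3 and lithium plus MDI array 3 stood above the other 8 arrays, which lay between -1.76 and -1.0. The members' second probes gave the same 4 arrays, with values of 1.11 and 1.18 on lithium arrays 2 and 3, 0.55 on preadipocyte array 3 and -0.13 on lithium plus MDI array 3. let-7b minus let-7e was -2.01, -2.25 and -1.60 in lithium plus MDI cells, -2.24, -1.68 and -1.78 in MDI cells, -1.82, -0.16 and 0.12 in lithium cells, and -2.47, -2.76 and -1.03 in preadipocytes. It was highest on the same lithium arrays 2 and 3, followed by preadipocyte array 3. let-7a minus let-7f, by contrast, stayed between -0.65 and -0.09 on all 12 arrays. Of the 4 arrays with a high let-7c to let-7e ratio, preadipocyte array 3 and lithium plus MDI array 3 are among those that stood apart, and the ratio on lithium array 1 lay apart from the other 2 of its group. Their part in this pattern was not tested.

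Over the 12 arrays, which share their scaling, the 21 pairs among the members other than let-7b and let-7c correlated at r = 0.38 to 0.93 (median 0.72). The 14 pairs of let-7b or let-7c with those 7 members correlated at r = -0.67 to 0.09 (median -0.39), and let-7b correlated with let-7c at 0.85. let-7c and let-7e correlated at r = -0.62 (Spearman rho -0.43). The highest of all pairs was let-7d with let-7e, at 0.93, which lie on different chromosomes.

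**Figure D3:**
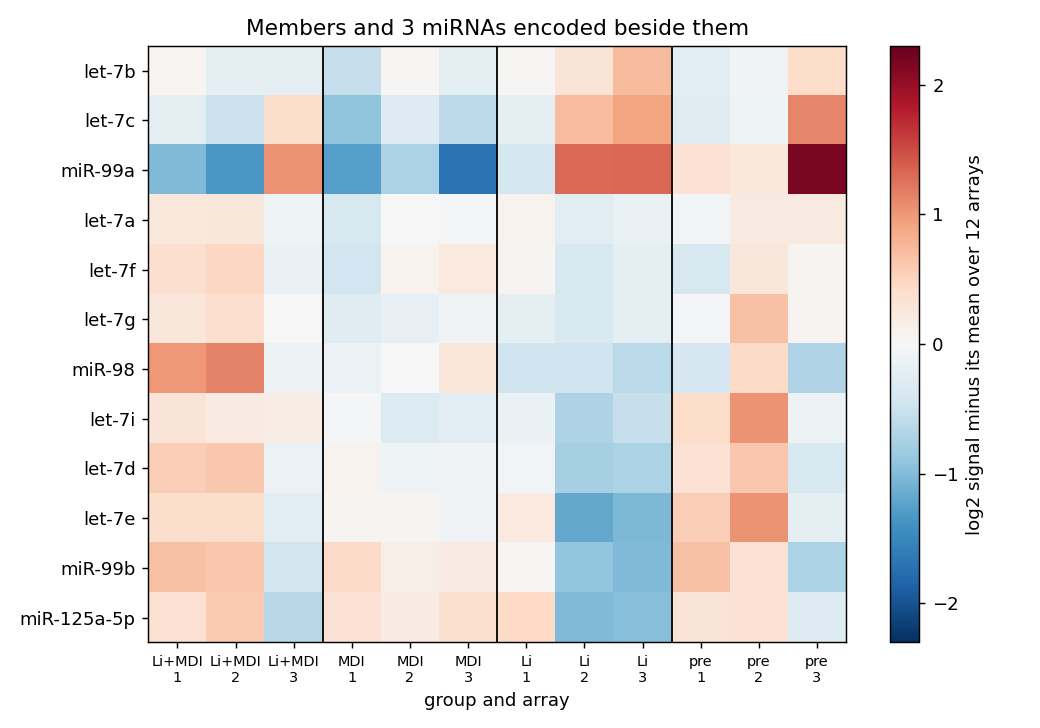
Log2 signal of the 9 members and of miR-99a, miR-99b and miR-125a-5p on each array, minus that miRNA's mean over the 12 arrays. Columns are arrays in their groups, red is above and blue below the mean. let-7b, let-7c and miR-99a are red on lithium arrays 2 and 3 and preadipocyte array 3, where let-7e, let-7d, miR-99b and miR-125a-5p are blue.

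Each of let-7c and let-7e varied with the miRNA encoded beside it. How many other tested miRNAs correlated as closely with let-7c or let-7e was not counted, so the values are not evidence particular to neighbouring genes. let-7d, on another chromosome, correlated with let-7e at r = 0.93. Over all tested miRNAs, preadipocyte array 3 correlated with lithium arrays 2 and 3 and lithium plus MDI array 3 at r = 0.962, 0.964 and 0.968. miR-99a, whose hairpin lies 656 bases from that of let-7c on chromosome 16, read -2.20, -2.53 and -0.15 in lithium plus MDI cells, -2.45, -1.92 and -2.88 in MDI cells, -1.59, 0.12 and 0.13 in lithium cells, and -0.85, -0.94 and 0.98 in preadipocytes. Its 4 highest arrays were the 4 on which let-7c was highest. let-7c and miR-99a correlated at r = 0.93 over 12 arrays (Spearman rho 0.92), at 0.88 without the 2 arrays farthest from the median of let-7c, and at 0.98 over the 8 arrays of slide 2. miR-99a differed by -2.14 between MDI cells and preadipocytes (SE 0.67, limma adjusted p = 0.0830), with every MDI array below every preadipocyte array.

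miR-99b, 94 bases from the let-7e hairpin on chromosome 17, read -0.36, -0.42 and -1.45 in lithium plus MDI cells, -0.60, -0.90 and -0.84 in MDI cells, -1.01, -1.93 and -2.04 in lithium cells, and -0.36, -0.69 and -1.75 in preadipocytes. miR-125a-5p, 367 bases from let-7e, read -0.11, 0.14 and -1.11 in lithium plus MDI cells, -0.13, -0.27 and -0.099 in MDI cells, 0.00, -1.47 and -1.45 in lithium cells, and -0.15, -0.12 and -0.76 in preadipocytes. Both were lowest on the arrays where let-7e was lowest, lithium arrays 2 and 3, lithium plus MDI array 3 and preadipocyte array 3. let-7e correlated with miR-99b at r = 0.86 (rho 0.84) and with miR-125a-5p at 0.86 (rho 0.69). Without the 2 arrays farthest from the median of let-7e these values were 0.67 and 0.59, so part of each relation rests on those arrays. Over the 8 arrays of slide 2 they were 0.95 and 0.93, and after the group means were taken out 0.87 and 0.91.

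Other neighbours did not all follow. let-7a correlated with miR-100, 5211 bases away on chromosome 9, at r = 0.58 (rho 0.27). let-7c correlated at r = -0.67 with miR-125b-5p, which has a gene 46522 bases from it on chromosome 16 and another near let-7a on chromosome 9. That r was -0.90 without the 2 arrays farthest from the median of let-7c, and -0.95 over the 8 arrays of slide 2. let-7a correlated with miR-125b-5p at r = 0.39 over the 12 arrays, at 0.67 without the 2 arrays farthest from the median of let-7a, and at 0.85 over the 8 arrays of slide 2. Within the family, let-7f correlated with let-7a at 0.88, with miR-98 at 0.75 and with let-7d at 0.57. Over the 8 arrays of slide 2 these values were 0.93, 0.89 and 0.94. None of the 5 neighbouring miRNAs (miR-99a, miR-99b, miR-100, miR-125a-5p, miR-125b-5p) passed the threshold in any of the 6 comparisons, and all 5 were detected on all 12 arrays. In lithium against preadipocytes 5 of 5 had lower means, with a median of -0.57, where 54.8% of all tested miRNAs were lower. This was 4 of 5 in the authors' deposited value table, without lithium array 1, without preadipocyte array 3 and without the 3 arrays that stood apart. In lithium plus MDI against lithium 4 of 5 had higher means, with a median of 0.49, where 71.3% of all tested miRNAs were higher. With quantile normalization, and in the authors' deposited value table, this held for 2 of 5. It held for 3 of 5 with the percentile over every mouse probe or without the members' own probes, and without lithium array 3. In the interaction 5 of 5 stood above 0, with a median of 0.50, where 65.6% of all tested miRNAs did. This was 4 of 5 with quantile normalization, in the authors' deposited value table and without the 3 arrays that stood apart.

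**Figure D4:**
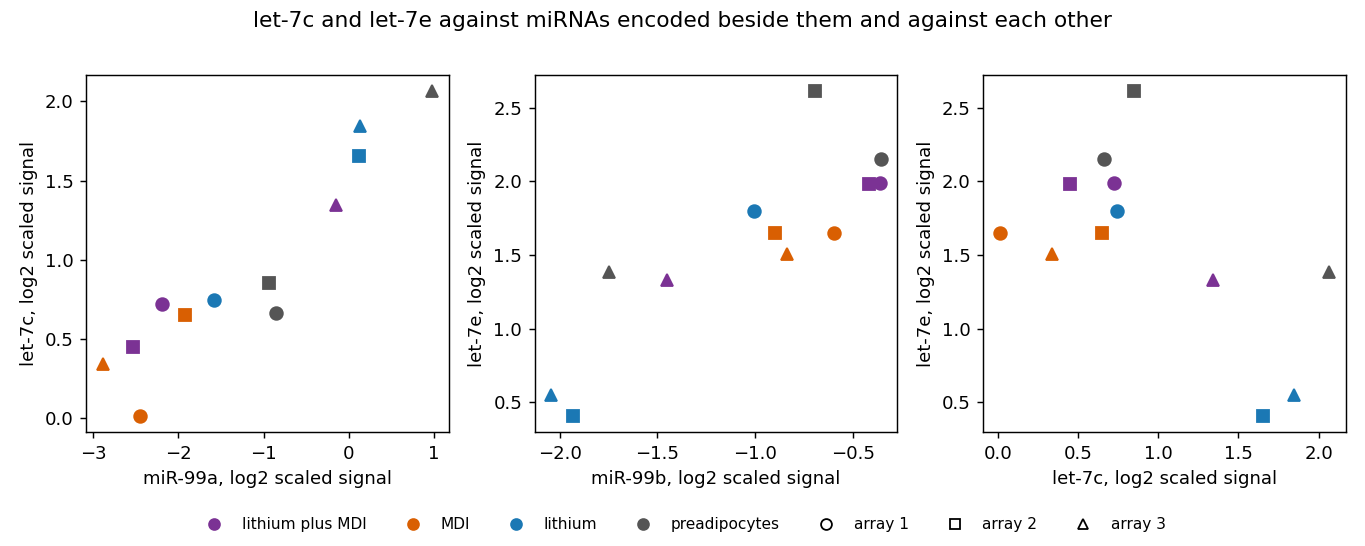
let-7c against miR-99a, let-7e against miR-99b, and let-7e against let-7c, each as log2 signal over the array's 75th percentile. Each point is 1 of 12 arrays, coloured by group and shaped by array number. The first 2 panels run upward (r = 0.93 and 0.86), and the third runs downward (r = -0.62).

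The passenger strands, the opposite arms of the hairpins that are usually degraded, were near or below background. Of 7 on the array, let-7b* was detected on 7 arrays, let-7f* on 5 and the other 5 on none. let-7b*, the one that could be tested, read -4.20, -4.80 and -4.97 in lithium plus MDI cells, -3.86, -4.82 and -4.62 in MDI cells, and -4.80, -4.84 and -4.56 in lithium cells. All 3 preadipocyte arrays were at the floor of -4.97, the lowest value that the processing allows, and let-7b* passed in no comparison.

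The clusters that run from miR-17 to miR-92a, which promote proliferation and oppose let-7 in development, were set beside the family as a list. Of 6 miRNAs, 4 were tested (miR-18a, miR-19b, miR-20a, miR-92a). miR-17 was detected on no array and miR-19a on 4, and neither was tested. None of the 4 passed in any of the 6 comparisons. miR-18a was at the floor on all 3 preadipocyte arrays and is left out of the directions given here. The 3 others, detected on all 12 arrays, had higher means in MDI cells than in preadipocytes, by 1.16 for miR-19b (SE 0.35), 1.38 for miR-20a (SE 0.42) and 1.14 for miR-92a (SE 0.57), as did 89 of the 157 tested miRNAs. In lithium plus MDI against lithium the same 3 were higher too, by 0.35, 0.45 and 0.58, as were 7 of 9 members and 112 of the 157. In lithium plus MDI against MDI they differed by -0.42, -0.43 and -0.42, where 9 of 9 members and 114 of the 157 were higher.

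Of the 148 tested miRNAs outside the family, the 5 most like the mean of the 9 members over the 12 arrays were miR-155, miR-22*, miR-185, miR-350 and miR-361, with Pearson r of 0.79, 0.71, 0.70, 0.69 and 0.69. The median over the 148 was 0.20, and all values share the arrays' scaling. miR-155, a miRNA known from immune cells, read -0.72, -0.71 and -1.32 in lithium plus MDI cells, -1.49, -1.53 and -1.29 in MDI cells, -1.87, -2.18 and -1.40 in lithium cells, and -0.15, 0.30 and -1.34 in preadipocytes. It was the one of these 5 to pass a test, lower in lithium cells than in preadipocytes by -1.42 (SE 0.38, limma adjusted p = 0.0382). After the group means were taken out, r was 0.61 for miR-155, 0.77 for miR-350 and 0.05 for miR-185. miR-22* was detected on 4 arrays, so most of its values lie at or near the floor.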

How the data were processed

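The deposited scanner files hold spot intensity, background-subtracted by Agilent Feature Extraction 10.5.1.1 per the file headers and left without scaling between arrays. The submitters' processing notes name 9.5.3. From 0.5 ug of total RNA per sample, Cy3-labelled RNA was hybridised, per the labels' protocols. The authors also deposited a table whose values fit log2 of the total signal (r at least 0.997 per array). Its normalization is not given in the sources used here, and it served as an alternative. Its column medians lay between 0.00175 and 0.0958.

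Outlier spots were left out and spots averaged per probe. Signals were scaled by the array's 75th percentile (264 to 780) of 181 mouse probes, those detected on every array and including the members' own 18, then floored at -4.97 (log2) and put on a log2 scale. Each miRNA was represented by its brightest probe, and the 157 whose probe was detected throughout 1 group or more were tested; 9.02% of their values lay at the floor. limma 3.58.1 (R 4.3.3) fitted 4 group means with no block, and its two-sided moderated test was adjusted by Benjamini-Hochberg over the 157, with a threshold of 0.05. The script was tested on simulated data. Arrays give no counting depth; their number limits the precision (median SE 0.335 between groups, 0.474 for the interaction).

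The members, the lists, the rule for naming miRNAs (all members, their passenger strands, 5 neighbours, the 5 most alike) and the alternatives were chosen with earlier results of these data known. Sequences came from RefSeq tables by miRNA name. Same-numbered arrays of different groups did not deviate together throughout: over 18 pairs, r ran from -0.48 to 0.47, and 9 pairs lay above 0.1. Figures were drawn with matplotlib 3.10.9.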

Additional observations from a re-analysis of the deposited data

How the results depend on the processing

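With 3 arrays a group, member differences had SEs of 0.24 to 0.41 (0.34 to 0.58 for the interaction), which limits what could pass the threshold. Of 937 alternative values for 33 member differences larger than their SE, 857 kept direction and side of the threshold, 67 came to pass it and 13 reversed. The causes were not tested. The percentile over every mouse probe lay near background, at 2.68 to 5.97 in signal. On each array 17.9% to 24.2% of mouse spots were well above background. This percentile shifts the median of all tested miRNAs by over 0.1 in every comparison, to -0.64 in MDI against preadipocytes, -0.90 in lithium against preadipocytes and 0.89 in the interaction. No scaling gives -0.70, -0.69 and 1.04.

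Members past the threshold, 0 in each comparison, became 8 (percentile over every mouse probe), 7 (no scaling) and 2 (without the 3 arrays that stood apart) in MDI against preadipocytes. In lithium against preadipocytes they became 7, 6 and 5 under those settings, 1 (let-7i) without the members' own probes in the percentile or with quantile normalization, and 3 without the filter. In lithium plus MDI against preadipocytes they became 6 with the percentile over every mouse probe and 1 without the 3 arrays. In lithium plus MDI against lithium they became 5 without the 3 arrays, and in the interaction 5, 6 and 5 under the same 3 settings and 2 without the filter. The replicate block let 1 member pass, miR-98 in lithium plus MDI against lithium (limma adjusted p = 0.0449), and changed no other call. Whether the numbers pair the samples is not settled by the values. The share of all tested miRNAs passing was counted for the main fit and for fits without certain arrays. For the other settings it was not counted, so the member counts under them are not evidence particular to the family.

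The members' median in MDI against preadipocytes moved to -1.08 (percentile over every mouse probe), -1.16 (no scaling) and -0.49 (slide as a block, or slide 1 alone, an alternative chosen after seeing the data). It stood at -0.42 without the 3 arrays, -0.15 with normexp or total signal per miRNA, and -0.12 in the authors' deposited table. In lithium against preadipocytes it moved to -1.19 and -0.98 under those scalings, -0.030 in the authors' deposited table, -0.11 (quantile), -0.58 with the slide as a block and -0.56 without the 3 arrays. In lithium plus MDI against preadipocytes it moved to -1.06, -0.74 and, with the slide as a block, -0.21, and stood at -0.13 (quantile) and 0.12 (normexp), and in lithium plus MDI against lithium to 0.27 (quantile), 0.30 (authors' deposited table) and 0.71 (without the 3 arrays). In lithium plus MDI against MDI it moved to 0.15 (percentile over every mouse probe), 0.17 (percentile without the members' probes), 0.16 (quantile), 0.23 (total signal per miRNA) and 0.13 (authors' deposited table). In the interaction it moved to 1.55, 1.76, 0.47 (quantile), 0.67 (normexp, or total signal per miRNA), 0.49 (authors' deposited table) and 1.11 (without the 3 arrays).

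The 13 reversals were let-7a in MDI against preadipocytes (0.022, normexp), let-7b in lithium against preadipocytes (-0.56, percentile over every mouse probe; -0.36, no scaling; -0.10, slide as a block) and miR-98 in lithium plus MDI against preadipocytes (-0.16, percentile over every mouse probe). In lithium plus MDI against lithium they were let-7a (-0.24, quantile; -0.32, authors' deposited table) and let-7f (-0.33 and -0.18). In the interaction they were let-7a (-0.046 and -0.23) and let-7f (-0.18 and -0.24).

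Leaving out 1 array at a time gave 0 to 3 members past the threshold in lithium against preadipocytes, 0 to 1 in lithium plus MDI against preadipocytes, 0 to 2 in lithium plus MDI against lithium and in the interaction, and 0 in the other comparisons. With 1 array left out, 15.3% to 24.2% of all tested miRNAs passed in the fits where this share was counted. These member counts are therefore not evidence particular to the family. The medians then ran from -0.42 to -0.19 (MDI against preadipocytes), -0.53 to -0.18 (lithium against preadipocytes), -0.15 to 0.09 (lithium plus MDI against preadipocytes), 0.40 to 0.60 (lithium plus MDI against lithium), 0.25 to 0.45 (lithium plus MDI against MDI) and 0.60 to 1.01 (interaction). Slide 2 alone was not run where it holds no preadipocytes.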
